A study of Mus musculus with 42 samples.

Results

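Bone-marrow-derived macrophages (BMDM) labelled KO for Irf5 were compared with BMDM labelled WT after 24 h with bacterial lipopolysaccharide (LPS). The comparison took the 3 libraries labelled KO and the 3 labelled WT at that treatment and time, 6 of the 42 RNA sequencing libraries of the series. The labels alone set which libraries were taken, while the comparison itself was chosen with earlier results of these data known. BMDM are cells of the bone marrow grown into macrophages in culture. The KO mice carried floxed Irf5 alleles and the LysM-Cre driver, in which the recombinase is expressed from the Lyz2 gene in myeloid cells, and the WT mice were their littermates. The donors were young adult males of both genotypes. Untreated cells after 24 h (Control) and cells after 2 h with LPS, with 3 libraries of each genotype, served for comparison. The sources used here do not state how many mice or cultures stood behind the 3 libraries of a group. In the main fit, p-values measure the spread between libraries within a group, estimated over all 14 groups of the series. That spread may be technical.

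Interferon regulatory factor 5 (IRF5) is a transcription factor that is activated downstream of Toll-like receptors and is known for driving inflammatory cytokine genes in macrophages. LPS is sensed by CD14 and the TLR4 complex. It sets off an early wave of cytokine and chemokine transcripts, followed by an interferon response and, over the following hours, by feedback that lowers the early wave and by changes in metabolism and antigen presentation.

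The total counts of the 6 libraries, rounded to 6 digits, lay between 5363050 and 6808430, and 3 counts stood for 0.441 to 0.559 CPM (counts relative to the library total, scaled between libraries by TMM). All 11 macrophage markers were measured and none was called between the genotypes. Summed over the list, the group labelled WT held 14740 to 16474 CPM and the group labelled KO 15389 to 15569 CPM. Library 1 of the group labelled KO stood apart by genes of connective tissue cells. The count of Col1a1, the gene of a type I collagen chain, was 647 in that library, 0 and 46 in the other 2 labelled KO and 0, 5 and 3 in those labelled WT. Of 5 fibroblast markers tested none was called by edgeR, 4 had an unadjusted p under 0.05, and the median log2 difference was 4.17, or 1.04 without KO library 1. Of the 8 fibroblast markers, Pdgfra, Dcn and Lum had at most 5 counts in any of the 6 libraries, and the summed level of the list was 197, 1.68 and 17.4 CPM in the libraries labelled KO against 1.03, 7.12 and 4.13 CPM in those labelled WT. Over the whole series the summed level of Col1a1, Col1a2, Col3a1 and Sparc ran from 0 to 364 CPM in the other 41 libraries. KO LPS 24 h library 1, at 194 CPM, was below only KO palmitate 2 h library 3. Next below it was KO LPS 2 h library 2 at 188 CPM. The other libraries at LPS 24 h held at most 15.7 CPM, and the libraries labelled WT in the series at most 63.2 CPM. Library 2 of the group labelled WT differed most from the others of its group, the chi-square over its degrees of freedom being 7.48 and 6.87, against 3.21 between the other 2. No pair matched within sampling noise. Where leaving out either library ended a call between the genotypes at LPS 24 h, the change without it is given. In places it is given within a range over several libraries. Among genes that were not called, only some have such values.

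Of 11624 genes tested, 17 differed between the genotypes at LPS 24 h (edgeR quasi-likelihood test, Benjamini-Hochberg adjusted p under 0.05), which is 0.146% of the genes tested. Of these, 10 were higher in the libraries labelled KO (0.086%) and 7 were lower (0.0602%). The median log2 fold change of all genes was 0.0052, and 1056 genes had an unadjusted p under 0.05. Without KO library 1 the test called 9 genes, all among the 17, and without WT library 2 it called 12, of which 9 were among the 17. It called 27 without KO library 2, of which 15 were among the 17. Without WT library 1 or 3 the balance of directions turned, to 6 higher and 14 lower and to 6 higher and 9 lower. The level of all 17 genes did not overlap between the groups, as was the case for 1556 genes (13.4%) of those tested.

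**Figure D1:**
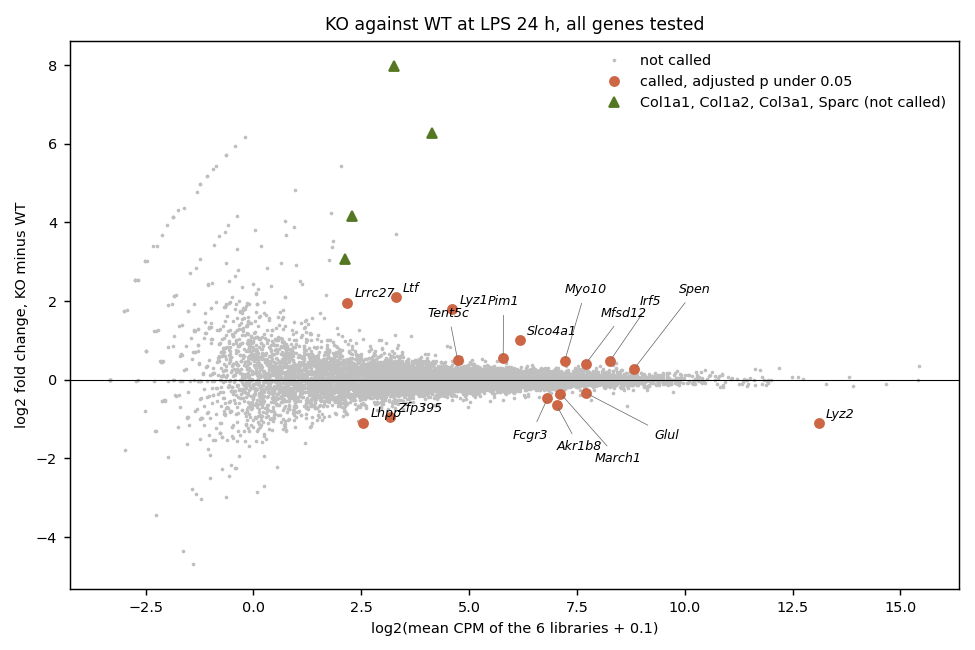
Log2 fold change at LPS 24 h, KO-labelled minus WT-labelled libraries (vertical axis) by mean level of the 6 libraries on a log2 scale of CPM + 0.1 (horizontal axis), 1 point per gene tested. The 17 called genes are orange and named, and 4 fibroblast genes that rest mainly on KO library 1 and were not called are green triangles. Lyz2 is the most abundant of the called genes.

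Irf5 itself, on chromosome 6 (29526625 to 29541871, forward strand, GRCm38), was measured at 265, 254 and 252 CPM in the WT-labelled libraries and at 354, 372 and 343 CPM in those labelled KO. Every library labelled KO was above every library labelled WT, so the level of the targeted gene went against the label. On the log2 scale the difference was 0.47 (SE 0.055, adjusted p = 1.55e-07, edgeR). The count covers the whole gene and does not resolve its exons, and the part that Cre removes was not measured apart from the rest. Tnpo3 overlaps the gene on the opposite strand, at a mean of 63.2 CPM. The libraries are therefore named by their labels throughout. The call held in every alternative, with log2 fold changes from 0.43 to 0.49. Of the other 10 interferon regulatory factor genes and binding partners tested, none was called by edgeR or DESeq2 and none had an unadjusted p under 0.05. Irf7, the factor that amplifies the interferon response, was the most abundant of the list, at 1547, 1630 and 1642 CPM in the WT-labelled libraries and 1662, 1831 and 1683 CPM in those labelled KO. The groups did not overlap, with a log2 difference of 0.10 (SE 0.15), and the levels of Irf1, Irf3, Irf8 and Irf9 overlapped between the groups.

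The Lyz2 gene, which carries Cre in the KO mice, codes for the lysozyme of macrophages, a secreted enzyme that cleaves bacterial cell walls. It lies on chromosome 10 (117277331 to 117282321, reverse strand), and its paralogue Lyz1 lies beside it (117287797 to 117292868, reverse strand). The coding sequences of both genes, 444 bases without the stop codon, are 95.05% identical, with 22 differing bases. Of these, 14 fall in the first coding exon, which is shown for that reason for both genes, taken from the reference transcripts, with the differing bases in capitals, at chr10:117292703-117292838 for Lyz1 and chr10:117282107-117282242 for Lyz2, reverse strand of GRCm38.
Lyz1: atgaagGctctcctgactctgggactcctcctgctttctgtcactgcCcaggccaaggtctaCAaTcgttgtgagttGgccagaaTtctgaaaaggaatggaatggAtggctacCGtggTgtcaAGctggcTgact
Lyz2: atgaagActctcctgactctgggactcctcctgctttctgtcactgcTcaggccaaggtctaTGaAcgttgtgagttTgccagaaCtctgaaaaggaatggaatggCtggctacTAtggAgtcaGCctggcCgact
Of 1164 stretches of 100 bases in the Lyz1 transcript, 24 were also present in that of Lyz2, so that a read of such a length is specific to Lyz1 over most but not all of the transcript. The split of reads between them is uncertain to that extent.

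Lyz2 was measured at 10343, 14587 and 11281 CPM in the WT-labelled libraries and at 5641, 5526 and 5576 CPM in those labelled KO. The groups were far apart, with WT library 2 the highest. The level was 2.16-fold lower in the libraries labelled KO, or -1.11 on the log2 scale (SE 0.094, adjusted p = 1.14e-11), and it was -0.96 without WT library 2. Lyz1 moved the other way, from 12.2, 12.9 and 7.81 CPM in the WT-labelled libraries to 39.8, 37.5 and 35.9 CPM in those labelled KO. It was 3.46-fold higher (log2 fold change 1.79, SE 0.17, adjusted p = 1.17e-10), and here too no library of a group reached the range of the other. Both calls held in every alternative that gave an adjusted p. Nnt, a mitochondrial transhydrogenase that is disrupted in some C57BL/6 substrains, was measured in all 6 libraries. It stood at 36.9 ± 6.65 CPM in the WT-labelled libraries and 48.0 ± 3.62 CPM in those labelled KO (SD, n = 3 each) and was not called (log2 difference 0.38, SE 0.11, adjusted p = 0.178).

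**Figure D2:**
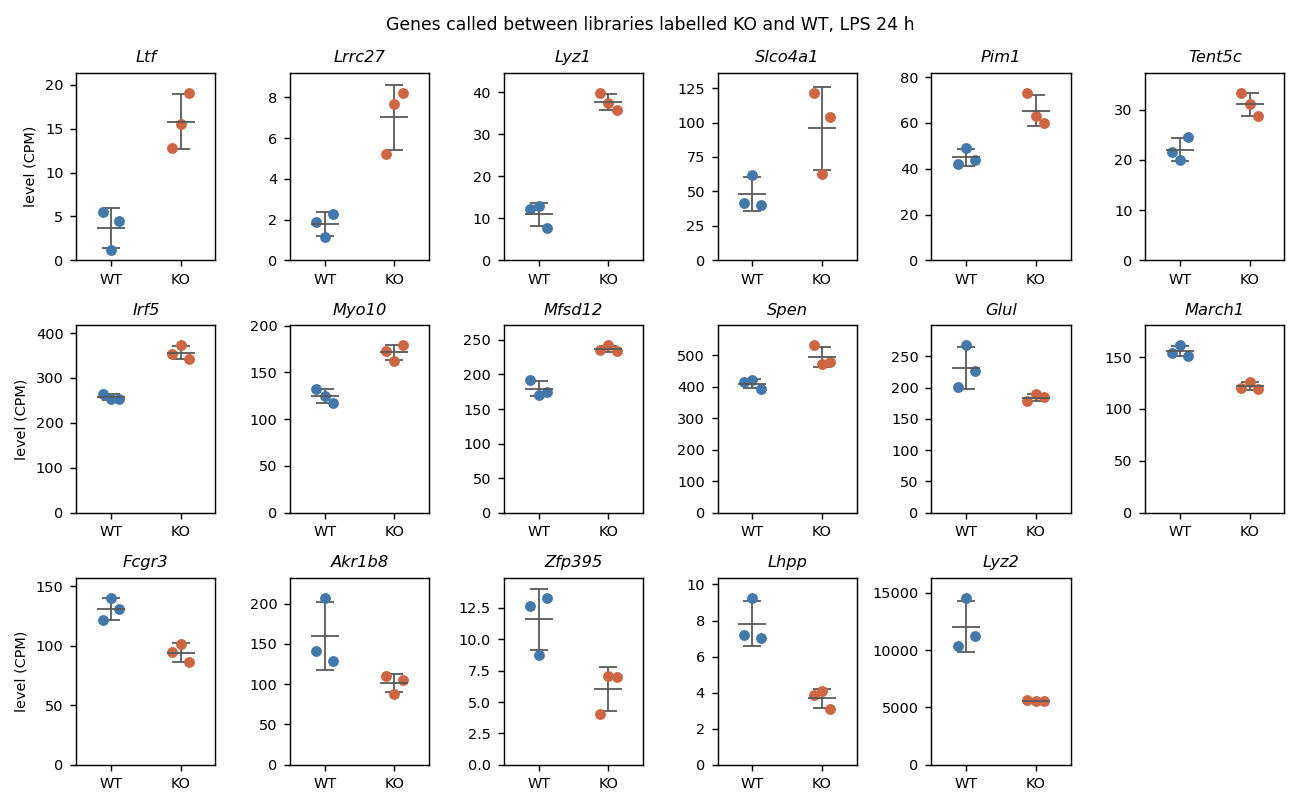
Level of each called gene in CPM (vertical axis, starting at 0) in the 3 libraries labelled WT (blue) and the 3 labelled KO (orange) at LPS 24 h, in the order of the log2 fold change. Grey bars give the mean and the SD. The groups do not overlap in any panel, and for Slco4a1 the lowest library labelled KO lies close to the highest labelled WT.

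Ltf, which codes for lactoferrin, an iron-binding protein of neutrophil granules, had the largest fold of the called genes. It was measured at 5.48, 1.16 and 4.44 CPM in the WT-labelled libraries, corresponding to 32, 7 and 29 counts, and at 12.8, 15.5 and 19.03 CPM in those labelled KO, corresponding to 86, 83 and 130 counts. The groups did not overlap, and WT library 2 was the lowest. On the log2 scale Ltf was higher by 2.09 (SE 0.37, adjusted p = 0.00186). Without WT library 2 it was 1.67 (adjusted p = 0.0537) and no longer passed. Other granule genes were measured beside it and were not called. S100a9, a subunit of calprotectin, had 7.53, 2.48 and 7.96 CPM against 9.84, 16.1 and 13.9 CPM (log2 difference 1.13, SE 0.36, adjusted p = 0.248), and Ngp, neutrophilic granule protein, had a log2 difference of 0.94 (SE 0.37, adjusted p = 0.402). The proteases Mmp9 (log2 difference -0.52, adjusted p = 0.114) and Mmp8 (-0.43, adjusted p = 0.178) lay on the other side. Of 13 granule and lysozyme genes tested, 2 were called higher (Lyz1 and Ltf) and 1 lower (Lyz2), beside 0.146% of all genes tested. This list was chosen with earlier results of these data known. The granulocyte precursor list as a whole summed to 296, 325 and 289 CPM in the WT-labelled libraries and 279, 304 and 301 CPM in those labelled KO. Ltf and S100a9, at no more than 19.03 and 16.1 CPM, made up little of this sum, which therefore says little about them. Of its 17 genes, 9 were tested and 1 was called (Ltf). At an unadjusted p under 0.05, 4 were higher and 1 was lower, beside 9.08% of all genes tested, and the median log2 difference was 0.78. With each of the 6 libraries omitted in turn the median was lower, from 0.25 to 0.63. Whether the same 9 genes were tested in those fits is not given here. Ly6g and Retnlg had no count in any of the 6 libraries. In bulk RNA, a change in the number of cells of a type and a change in RNA per cell cannot be told apart. The part of granulocyte precursors in the Ltf difference was not tested.

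Lower in the libraries labelled KO was Fcgr3 (chromosome 1, 171051174 to 171064935, reverse strand), the low-affinity activating receptor for IgG. Its level was 122, 140 and 130 CPM in the WT-labelled libraries and 94.98, 102 and 86.1 CPM in those labelled KO. The lowest library labelled WT was above the highest labelled KO. On the log2 scale the change of Fcgr3 was -0.48 (SE 0.079, adjusted p = 0.000432), and the call held in every alternative, between -0.54 and -0.42. The other IgG receptors were not called. The high-affinity receptor Fcgr1 had a mean of 447 ± 48.6 CPM against 482 ± 62.9 CPM (labelled WT against labelled KO, SD, n = 3 each), the inhibitory receptor Fcgr2b 104 ± 10.4 against 92.9 ± 5.32 CPM, and Fcgr4 81.8 ± 6.51 against 80.6 ± 10.2 CPM. Fcer1g, the signalling chain that these activating receptors share, stood at 935 ± 26.9 against 873 ± 36.3 CPM. Of 17 genes of Fc receptors and their signalling chain that were tested, 1 was called and the median log2 fold change was -0.025. Leaving out KO library 2 or 3 moved this median to -0.12 or -0.11.

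March1 codes for a membrane-bound ubiquitin ligase that removes MHC class II and CD86 from the cell surface. It was measured at 154, 161 and 151 CPM in the WT-labelled libraries and at 120, 126 and 120 CPM in those labelled KO, with no overlap. Its log2 fold change was -0.35 (SE 0.076, adjusted p = 0.0288). The call ended when KO library 1 or 3 or WT library 1 or 2 was left out, at log2 fold changes between -0.37 and -0.33 (adjusted p of 0.0538 to 0.157). None of the 18 genes of MHC class II presentation tested was called by edgeR or DESeq2, 4 had an unadjusted p under 0.05, all higher, and the median log2 difference was 0.14. The class II chain genes H2-Eb1 (log2 difference 0.58, SE 0.19, adjusted p = 0.262) and H2-Aa (0.40, SE 0.18, adjusted p = 0.513) and the invariant chain Cd74 (0.37, SE 0.15, adjusted p = 0.402) overlapped between the groups. For Cd74 the libraries labelled WT held 241, 365 and 236 CPM and those labelled KO 388, 371 and 332 CPM, so that WT library 2 lay within the range of the KO group.

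A set of called genes with roles in signalling, RNA and the cytoskeleton was higher. Myo10 (chromosome 15, 25622525 to 25813673), an unconventional myosin that carries cargo to the tips of filopodia, was measured at 132, 125 and 117 CPM in the WT-labelled libraries and at 173, 163 and 179 CPM in those labelled KO. The groups did not overlap and the change on the log2 scale was 0.46 (SE 0.068, adjusted p = 2.96e-05), between 0.41 and 0.50 over the alternatives, which kept the call. Pim1, a serine/threonine kinase induced by cytokine signalling, rose from 42.1, 49.2 and 43.6 CPM to 72.9, 63.1 and 60.0 CPM. All 3 libraries labelled KO were higher, by 0.54 on the log2 scale (SE 0.12, adjusted p = 0.0257). Tent5c, a poly(A) polymerase that stabilises transcripts, was at 21.6, 20.02 and 24.5 CPM against 33.2, 31.2 and 28.7 CPM (log2 fold change 0.49, SE 0.11, adjusted p = 0.0421). Spen, a large RNA-binding transcriptional corepressor, was at 414, 421 and 394 CPM against 531, 474 and 480 CPM. It had the smallest change of the called genes, at 0.27 (SE 0.062, adjusted p = 0.0421). The reads of Spen could include some of Zbtb17, which overlaps it on the opposite strand at a mean of 33.8 CPM.

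Of these 4 genes, Myo10 was the only gene whose call did not depend on a single library. The Pim1 call ended when KO library 1 or WT library 1 or 3 was left out (log2 fold changes of 0.44 to 0.51, adjusted p of 0.1002 to 0.287). That of Tent5c ended when KO library 1 or 2 or WT library 1 or 2 was left out (0.42 to 0.48, adjusted p of 0.0914 to 0.287). That of Spen ended when KO library 1 or 3 or any library labelled WT was left out (0.21 to 0.29, adjusted p of 0.0655 to 0.366).

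Genes of transport and metabolism moved in both directions. Slco4a1, an organic anion transporter, was at 41.9, 62.1 and 40.3 CPM in the WT-labelled libraries and at 121, 62.7 and 104 CPM in those labelled KO, where KO library 2 was barely above WT library 2. Its log2 fold change was 1.01 (SE 0.23, adjusted p = 0.0421). Mfsd12, a transporter of cysteine into lysosomes and melanosomes, was at 192, 171 and 175 CPM against 236, 242 and 234 CPM. Every library labelled KO was higher, by 0.40 on the log2 scale (SE 0.078, adjusted p = 0.00596), and Fzr1 overlaps the gene on the opposite strand at a mean of 35.7 CPM. Glul, glutamine synthetase, fell from 201, 267 and 227 CPM to 178, 190 and 184 CPM (log2 fold change -0.33, SE 0.075, adjusted p = 0.0421). Akr1b8, an aldo-keto reductase that detoxifies aldehydes, fell from 142, 207 and 129 CPM to 110, 88.3 and 105 CPM (log2 fold change -0.65, SE 0.12, adjusted p = 0.00213), again with WT library 2 the highest. Lhpp, a phosphatase for phosphohistidine and phospholysine, was low throughout, at 7.19, 9.27 and 7.04 CPM against 3.88, 4.11 and 3.08 CPM (log2 fold change -1.09, SE 0.25, adjusted p = 0.0422).

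Akr1b8 rested on WT library 2: without it the log2 fold change was -0.41 (adjusted p = 0.149). Slco4a1 was not called without KO library 1 or 3 or WT library 1 or 3 (0.80 to 0.95, adjusted p of 0.141 to 0.319), Glul without KO library 1 or 3 or WT library 2 or 3 (-0.36 to -0.22, adjusted p of 0.0539 to 0.389), and Mfsd12 without WT library 2 or 3 (0.37 and 0.38, adjusted p of 0.0531 and 0.0598). Lhpp was not called without any 1 of the 6 libraries (-1.17 to -0.96, adjusted p of 0.0531 to 0.258). Of 35 NRF2 and detoxification genes tested, Akr1b8 was the 1 called by edgeR, DESeq2 added Gsta3, and the median log2 fold change was -0.023.

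The remaining called genes were Zfp395 and Lrrc27. Zfp395, a zinc finger transcription factor, was at 12.7, 8.77 and 13.3 CPM in the WT-labelled libraries and at 4.03, 7.10 and 7.03 CPM in those labelled KO (log2 fold change -0.95, SE 0.20, adjusted p = 0.0172). WT library 2 came nearest to the KO group. The call ended when KO library 1 or WT library 1 or 3 was left out (-0.89 to -0.72, adjusted p of 0.0696 to 0.282). Lrrc27 (chromosome 7, 139212988 to 139242979), which codes for a protein with leucine-rich repeats, was at 1.88, 1.16 and 2.30 CPM against 5.22, 7.66 and 8.20 CPM. Every library labelled KO was higher, by 3.88-fold on average (log2 fold change 1.96, SE 0.28, adjusted p = 2.04e-05), and no left-out library ended the call.

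Lrrc27 is also among 6 genes that the study singled out as bound by IRF5 and changed in its own tests, so that their direction is no independent evidence. It was the 1 of the 6 that was called. Ghitm, a protein of the mitochondrial inner membrane, was at 153, 167 and 161 CPM in the WT-labelled libraries and 197, 182 and 206 CPM in those labelled KO. The groups did not overlap, but the adjusted p was 0.084 (log2 difference 0.28, SE 0.069), while DESeq2 called it and so did the test without KO library 2 (0.32, adjusted p = 0.042). Fnip2, a partner of folliculin, was at 419, 378 and 391 CPM against 457, 455 and 455 CPM (log2 difference 0.20, SE 0.060, adjusted p = 0.179) and was called by DESeq2. Atf5, a transcription factor of the mitochondrial stress response, and Abcg1, a cholesterol exporter, had log2 differences of 0.30 (SE 0.12, adjusted p = 0.436) and 0.15 (SE 0.071, adjusted p = 0.536). Syce2, a protein of the meiotic synaptonemal complex, had 4.30 ± 1.20 against 4.11 ± 1.24 CPM (labelled WT against labelled KO, SD, n = 3 each), with overlap.

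A further 9 genes had an adjusted p between 0.05 and 0.10 and were not called. Besides Ghitm they included Tmppe (log2 difference 0.64, adjusted p = 0.0686), the potassium channel gene Kcnj2 (0.49, adjusted p = 0.0865), an identifier without a symbol (ENSMUSG00000093098, 0.58, adjusted p = 0.0966), the matrix glycoprotein Thbs1 (-0.66, adjusted p = 0.0835), the scavenger receptor Cd36 (-0.32, adjusted p = 0.0939), the antiviral membrane protein Ifitm2 (-0.44, adjusted p = 0.0966) and Ptgs2, the inducible cyclooxygenase (0.82, adjusted p = 0.0988). Glb1 overlaps Tmppe on the same strand at a mean of 65.6 CPM, so the strand cannot separate their reads. Tmppe itself held at most 20.5 CPM (KO library 2), and its reads could include some of Glb1. Ptgs2 illustrates the spread, with 16.1, 23.2 and 12.2 CPM in the WT-labelled libraries and 34.7, 16.6 and 37.6 CPM in those labelled KO. The groups overlapped through KO library 2, and without that library or without WT library 2 the gene was called (1.07, adjusted p = 0.00144, and 1.09, adjusted p = 0.0174).

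None of the transcripts taken as markers of the LPS response was called between the genotypes at 24 h. Tnf, a central inflammatory cytokine, was at 67.3, 55.3 and 55.7 CPM in the WT-labelled libraries and at 70.4, 73.2 and 74.1 CPM in those labelled KO. The groups did not overlap, but the difference did not pass (log2 difference 0.29, SE 0.095, adjusted p = 0.262). The chemokine gene Cxcl10 had a like pattern, at 7.53, 7.78 and 8.27 CPM against 9.54, 10.1 and 10.7 CPM (0.36, SE 0.20, adjusted p = 0.601). Nos2, inducible nitric oxide synthase, was at 12.8, 20.2 and 14.5 CPM against 39.2, 20.9 and 25.9 CPM (0.86, SE 0.31, adjusted p = 0.342). Il1b stood at 41.3 ± 7.63 against 46.9 ± 15.4 CPM, Il12b at 3.60 ± 0.459 against 4.93 ± 0.720 CPM, Il10 at 4.51 ± 0.176 against 4.85 ± 1.67 CPM and Acod1, which makes itaconate, at 593 ± 38.9 against 619 ± 93.4 CPM (labelled WT against labelled KO, SD, n = 3 each). Il6 was close to the level of 3 counts in every library, at 0.331 to 1.07 CPM against 0.187 to 1.19 CPM, and a difference was not detectable at this depth. Ifnb1 had at most 1 count in any library.

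None of 15 IRF5-associated cytokine genes, 14 chemokine genes, 36 interferon-stimulated genes or 35 genes of LPS and Toll-like receptor signalling was called by edgeR or DESeq2. At an unadjusted p under 0.05 there were 2, 2, 3 and 5 of them, and of the 12 genes all but 1 (Irak3, an inhibitor of the pathway) were higher. The medians of the log2 differences were 0.21, 0.065, 0.11 and 0.057, beside 0.0052 for all genes, of which 9.08% had an unadjusted p under 0.05. Among the interferon-stimulated genes the log2 difference was above 0 in 33 of 36, against 51.0% of all genes. Their summed level was 13654, 11981 and 13812 CPM in the WT-labelled libraries and 13780, 14821 and 13810 CPM in those labelled KO, lowest in WT library 2, without which the median was 0.029. Of the list, the smallest unadjusted p were those of Cmpk2 (0.35, SE 0.13, adjusted p = 0.343) and Isg15, the ubiquitin-like modifier (0.31, SE 0.12, adjusted p = 0.403). Isg15 was measured at 173, 133 and 167 CPM in the WT-labelled libraries and 190, 215 and 179 CPM in those labelled KO, without overlap. In the feedback arm, Tnfaip3, a deubiquitinase that limits NF-kappaB signalling, was at 60.9, 56.1 and 60.6 CPM against 76.3, 64.0 and 69.8 CPM (0.25, SE 0.077, adjusted p = 0.214). The chemokine median was 0.30 without KO library 2 and 0.28 without WT library 1.

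Of 74 nuclear oxidative phosphorylation subunits none was called by edgeR or DESeq2, 3 had an unadjusted p under 0.05, and the median log2 difference was -0.068. All 8 mitochondrially encoded subunits tested had a log2 difference below 0, with a median of -0.25, and 6 had an unadjusted p under 0.05. For mt-Nd2, a complex I subunit, the libraries labelled WT held 168, 166 and 104 CPM and those labelled KO 130, 90.9 and 109 CPM, so that WT library 3 lay within the KO group (log2 difference -0.40, SE 0.11, adjusted p = 0.173). The mitochondrial ribosomal RNA mt-Rnr1, kept here as a sign of RNA quality, was likewise lowest in WT library 3, at 17298, 17339 and 13725 CPM over the group, and stood at 16435, 13299 and 13814 CPM in those labelled KO. Its part in the difference was not tested. None of the 20 genes of cristae and the inner membrane was called by edgeR, and DESeq2 called Ghitm. The MICOS subunit Minos1 had 53.4, 53.1 and 53.6 CPM against 40.1, 43.1 and 40.8 CPM, without overlap, and an adjusted p of 0.211 (-0.37, SE 0.11). None of 22 glycolysis genes, 28 genes of the TCA cycle and itaconate, 17 genes of nitric oxide, arginine and prostaglandins, 12 of folliculin and TFEB, 16 of cholesterol efflux, 24 lysosomal enzymes or 22 scavenger receptors was called by edgeR, with 4, 2, 4, 2, 3, 1 and 5 at an unadjusted p under 0.05, and DESeq2 called Fnip2 and Cd36 among them. The glycolysis median was -0.091 and turned to 0.059 without WT library 2.

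**Figure D3:**
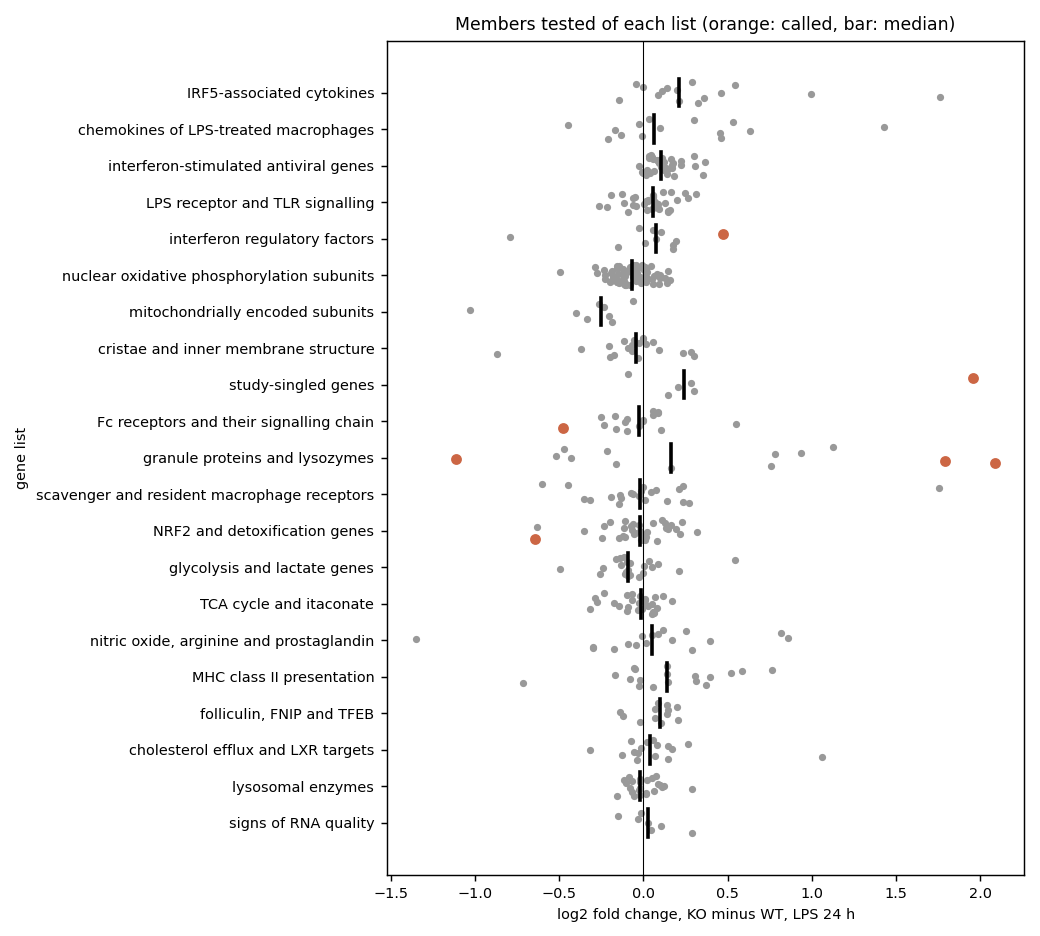
Log2 fold change at LPS 24 h, libraries labelled KO minus WT (horizontal axis), of the tested members of each gene list other than the cell type marker lists (rows). Each point is a gene, orange where called and grey where not, and the black bar is the median of the list. Called genes appear in 5 of the lists plotted. The medians of all lists plotted lie between -0.25 (mitochondrially encoded subunits, none of them called) and 0.24 (the 6 genes singled out by the study).

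Besides Ltf, no marker of another cell type was called by edgeR. The single T and NK cell marker tested, Cd4, was at 22.4 ± 4.71 CPM in the WT-labelled libraries and 30.7 ± 6.93 CPM in those labelled KO (SD, n = 3 each), a log2 difference of 0.44 (SE 0.15, adjusted p = 0.319), with overlap. The cell cycle list had 0 of 18 genes called by edgeR or DESeq2 (1 at an unadjusted p under 0.05), and its summed level was 471, 423 and 499 CPM in the WT-labelled libraries and 460, 524 and 486 CPM in those labelled KO. Summed levels lay between 17.6 and 28.8 CPM for B cells, 18.8 and 40.9 CPM for T and NK cells, 16.8 and 23.6 CPM for dendritic cells, and 2.48 and 6.88 CPM for mast cells and basophils, and 8 of 9 erythroid genes had no count. Cd3d, Igll1, Mcpt4 and Tpsb2 were at 0 in all 6 libraries. The mast cell and basophil list was higher in each library labelled KO, at 5.37, 6.54 and 6.88 CPM, than in those labelled WT, at 3.25, 2.48 and 4.90 CPM, with 0 of 3 tested genes called and 1 at an unadjusted p under 0.05. Among the 7 signs of RNA quality 0 were called and 0 had an unadjusted p under 0.05.

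The called genes were next followed in the genotype comparisons of the other 6 conditions, which share no library with LPS 24 h. All conditions were in the same fit. The sources used here do not state whether their cells came from the same mice or cultures. The conditions are therefore not taken as independent. The next counts include LPS 24 h itself, where all 17 were called by selection. Lyz1, Lyz2 and Lrrc27 were called in the same direction in 7 of 7 conditions, Ltf in 6, and Irf5 in 4. Of the remaining 12 genes, 8 were called in 2 conditions, LPS 24 h included, and 4 (Tent5c, Lhpp, Mfsd12 and Pim1) at LPS 24 h alone. At Control 0 h, where 12.5% of all genes were called, 11 of the 17 were called in the same direction, among them Fcgr3, Glul, March1, Spen, Slco4a1 and Zfp395. At LPS 2 h, where 0.465% were called, there were 6, which included Akr1b8 (-0.61) and Myo10 (0.32). At Control 24 h, where 0.12% were called, there were 4. Over the 6 conditions, 11 to 15 of the 17 had the sign they had at LPS 24 h, against 49.3% to 57.9% of all genes tested. Tent5c stood out by sign, with a log2 difference above 0 at LPS 24 h and below 0 in the other 6 conditions (-0.32 to -0.04), none of which was called.

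**Figure D4:**
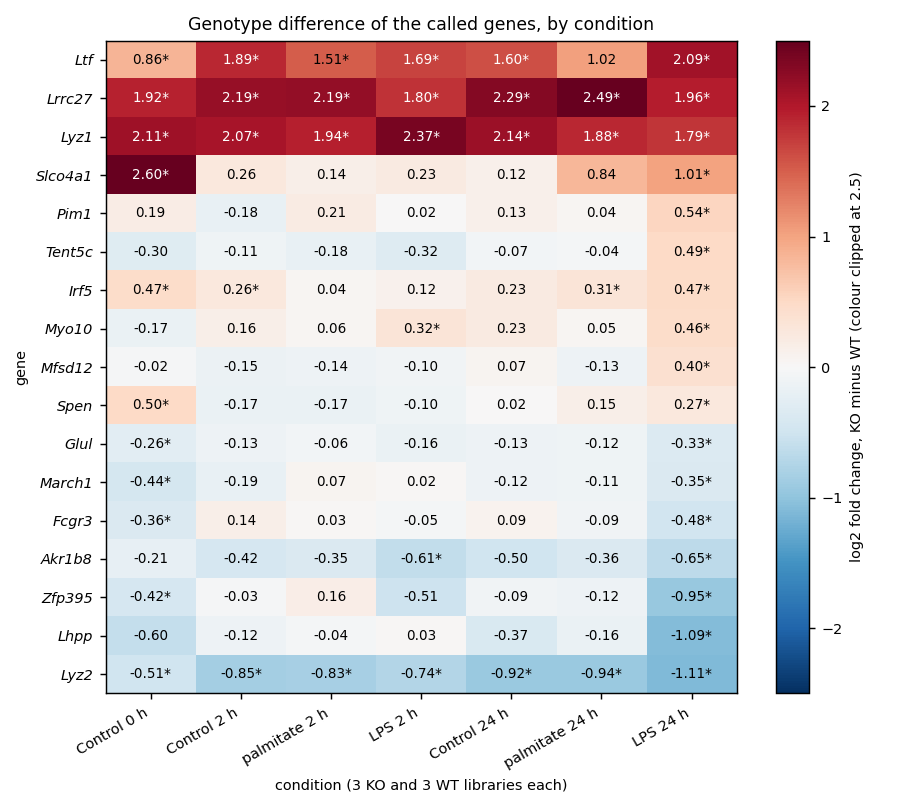
Log2 fold change, libraries labelled KO minus WT, of the 17 called genes (rows) in the 7 conditions (columns), with the value printed in each cell and a star where the adjusted p was under 0.05. Red marks higher and blue lower in the libraries labelled KO. Lyz1, Lyz2 and Lrrc27 carry a star in every column.

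Whether LPS changed the genotype difference was tested as an interaction with untreated cells at 24 h. Of 11624 genes 1 was called (0.0086%), Fcgr3, and 628 had an unadjusted p under 0.05. At Control 24 h the WT-labelled libraries held 235, 226 and 255 CPM of Fcgr3. Those labelled KO held 251, 257 and 256 CPM. The groups overlapped there, and did not after 24 h of LPS. Among the other untreated cells, Fcgr3 was called lower in the libraries labelled KO at Control 0 h. At Control 2 h its sign was opposite, and it was not called. LPS lowered the gene in both genotypes, by a log2 fold change of -0.87 (SE 0.075) in the libraries labelled WT and of -1.44 (SE 0.077) in those labelled KO. The difference between these responses was -0.57 (SE 0.11, adjusted p = 0.0334, edgeR). It did not pass without KO LPS library 1 or 3, WT LPS library 2, any library labelled KO at Control 24 h or WT Control library 1 or 2 (-0.58 to -0.51, adjusted p of 0.0587 to 0.333). Nor did it pass in a fit of only the libraries compared (-0.57, adjusted p = 0.0754). For the other called genes the interaction did not pass. LPS lowered Tent5c by -0.83 (SE 0.11) in the libraries labelled WT and by -0.27 (SE 0.11) in those labelled KO, with an interaction of 0.56 (SE 0.15, adjusted p = 0.796). It raised Pim1 by 1.02 (SE 0.14) and 1.43 (SE 0.13), and March1 by 1.47 (SE 0.083) and 1.23 (SE 0.084). LPS raised Irf5 by 0.36 (SE 0.056) in the libraries labelled KO, while the difference of 0.12 (SE 0.057, adjusted p = 0.0856) in those labelled WT did not pass, with an interaction of 0.24 (SE 0.079, adjusted p = 0.924).

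Compared with 2 h of LPS, the genotype difference at 24 h was shifted in 27 genes (0.232%), upwards in 19 and downwards in 8. These counts ranged widely when 1 library was left out, from 7 genes without WT LPS 24 h library 2 to 35 without KO LPS 2 h library 1. They fell to 13 without KO LPS 24 h library 1, 15 without library 2 and 12 without library 3 of that group, and to 10 to 13 without KO LPS 2 h library 2 or 3 or WT LPS 2 h library 1 or 3. Fnip2 had the smallest adjusted p. At 2 h it was at 402, 417 and 451 CPM in the WT-labelled libraries and 365, 336 and 306 CPM in those labelled KO, and at 24 h it was higher in each library labelled KO. The shift was 0.55 (SE 0.086, adjusted p = 0.000962), and it did not pass in a fit of only the 12 libraries compared (0.54, adjusted p = 0.0694). Cd5l, which codes for a secreted protein of tissue macrophages also called AIM, was at 832, 819 and 800 CPM against 391, 416 and 443 CPM at 2 h. At 24 h the groups overlapped, at 279 ± 41.4 and 281 ± 28.1 CPM (labelled WT and labelled KO, SD, n = 3 each), which gave a shift of 0.98 (SE 0.19, adjusted p = 0.00812). Lcn2, the iron-scavenging lipocalin, went from 8.23, 4.73 and 10.8 CPM against 17.5, 38.5 and 22.3 CPM at 2 h to 347 ± 64.0 against 310 ± 31.1 CPM at 24 h (labelled WT against labelled KO, SD, n = 3 each), a shift of -1.94 (SE 0.33, adjusted p = 0.0032). The chemokine gene Ccl5 turned from 147 ± 15.3 against 205 ± 4.48 CPM to 1984 ± 77.4 against 1793 ± 46.6 CPM (the same groups and order), a shift of -0.62 (SE 0.11, adjusted p = 0.00559).

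Further genes shifted upwards were Tent5c (0.81, SE 0.15, adjusted p = 0.00559, or 0.119 if only the 12 libraries compared were fitted), the CD300 family receptor gene Cd300lb (0.64, SE 0.12, adjusted p = 0.00812) and Fos, a subunit of the AP-1 transcription factor (0.86, SE 0.17, adjusted p = 0.00892). Those shifted downwards included the calcium-binding protein S100a11 (-0.99, SE 0.19, adjusted p = 0.00812), Tmem123 (-0.48, SE 0.11, adjusted p = 0.0452) and the histone gene Hist2h2ac (-0.93, SE 0.21, adjusted p = 0.0452). With only the 12 libraries compared fitted, Cd300lb (adjusted p = 0.26), Fos (0.0548), S100a11 (0.0694), Tmem123 (0.366) and Hist2h2ac (0.342) did not pass. Of the 17 genes called at LPS 24 h, Irf5 (0.36, SE 0.079, adjusted p = 0.0374), Mfsd12 (0.50, SE 0.11, adjusted p = 0.0452), Spen (0.37, SE 0.088, adjusted p = 0.0466) and Tent5c were also called in this contrast, which uses the same 24 h libraries. Calls that rested on a single library were Cd5l (0.87 without WT LPS 24 h library 2, adjusted p = 0.0632), Fos (0.74 without KO LPS 24 h library 3, adjusted p = 0.0888) and Lcn2 (-1.51 without KO LPS 2 h library 2, adjusted p = 0.069). Cd300lb was lost without KO LPS 2 h library 3 or WT LPS 2 h library 2 (0.54 in both, adjusted p of 0.076 and 0.0545), and S100a11 without WT LPS 24 h library 2 or KO LPS 2 h library 3 (-0.85 and -0.89, adjusted p of 0.0747 and 0.0591). Tmem123 was lost without 7 of the 12 libraries compared (-0.49 to -0.41, adjusted p of 0.0855 to 0.173) and Hist2h2ac without 8 (-0.97 to -0.83, adjusted p of 0.0502 to 0.17).

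**Figure D5:**
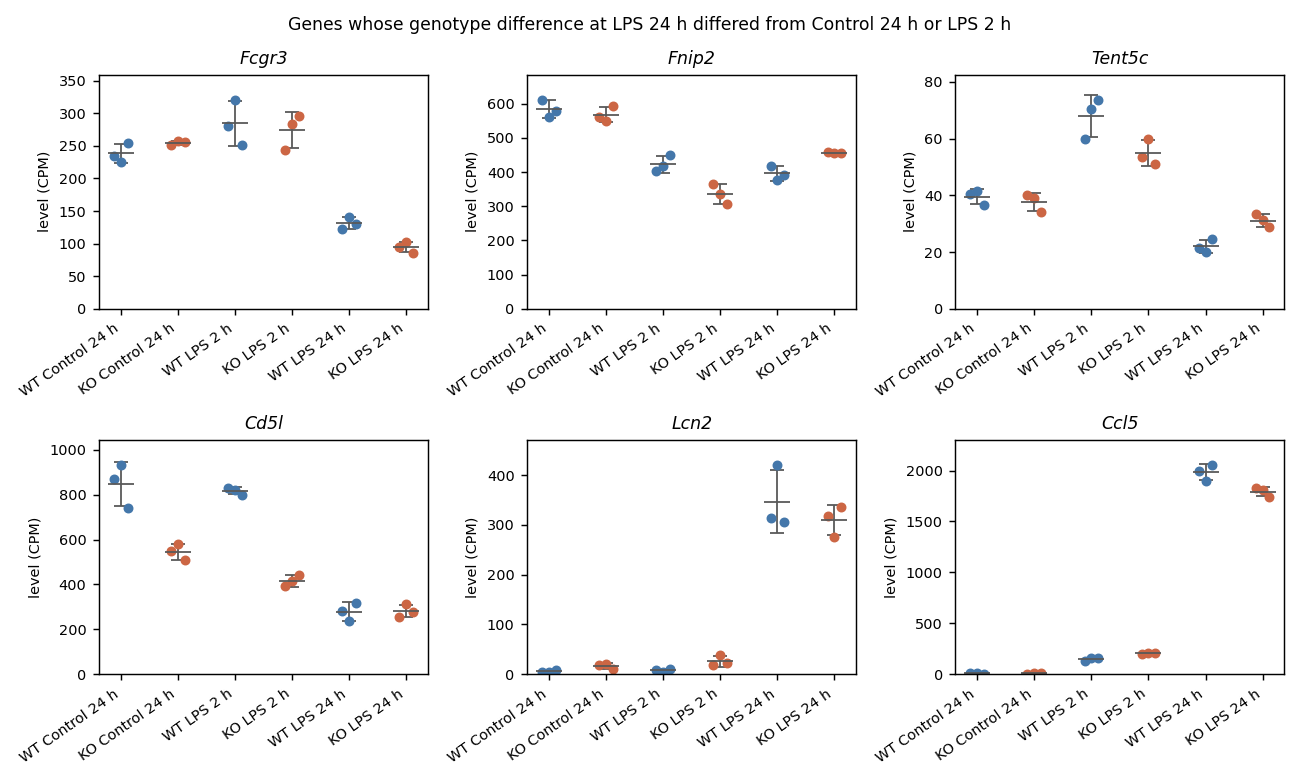
Level in CPM (vertical axis, starting at 0) of 6 genes whose genotype difference at LPS 24 h differed from that at Control 24 h (Fcgr3) or LPS 2 h (the others), in the libraries labelled WT (blue) and KO (orange) of the 3 conditions. Grey bars give the mean and the SD of 3 libraries. Fcgr3 separates by genotype only at LPS 24 h of the conditions plotted, and Cd5l separates at Control 24 h and LPS 2 h and overlaps at LPS 24 h.

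The position of the called genes was then examined. Of 66 other genes tested within 10 Mb of Irf5 on chromosome 6, 1 was called (Akr1b8), and of 65 within 10 Mb of Lyz2 on chromosome 10, 1 was called (Lyz1). Over all 11624 genes tested, 0.146% were called. The other 13 called genes lay outside these windows. Promoters, taken from RefSeq (GRCm38.p6) as 250 bases before to 50 after each start, were available for 15 of the 17 genes, with 22 starts. They were searched on both strands for GAAANNGAAA, the core of the element that interferon regulatory factors bind. It was present at 1 of 22 starts (4.55%), against 3.44% of all 32851 promoters in the table. The match lay in the promoter of Glul (chr1:153899679-153899978, forward strand), which is shown because it is the 1 hit among the called genes, with the match in capitals as its reverse complement.
Glul: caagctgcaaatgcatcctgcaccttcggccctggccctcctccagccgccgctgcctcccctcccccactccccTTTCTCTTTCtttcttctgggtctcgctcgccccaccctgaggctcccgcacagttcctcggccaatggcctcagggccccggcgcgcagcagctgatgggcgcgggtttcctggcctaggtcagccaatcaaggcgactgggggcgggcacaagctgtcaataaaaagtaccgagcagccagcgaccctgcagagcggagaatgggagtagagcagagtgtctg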

How the data were processed

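Total RNA of BMDM was made into stranded, ribodepleted libraries and sequenced in paired ends. Per the labels and the methods of the study, reads were processed with fastp 0.19.11 and STAR 2.7.3a against mm10, and the authors deposited a table of counts, 1 row per gene, which were not normalised. The gene annotation and whether counting used the strand are not given in the sources used here, so that counts of overlapping genes and close paralogues are uncertain. All 42 columns were used. They name a group, and library numbers follow column order only.

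The tests used edgeR 4.0.16 under R 4.3.3. After filterByExpr, genes were scaled by TMM and fitted with 1 mean per group over 42 libraries. Contrasts used the quasi-likelihood F test with Benjamini-Hochberg adjustment over 11624 genes, and an adjusted p under 0.05 made a call. As SE is given the log2 fold change, without its sign, divided by the square root of F. Symbols and positions came from the GENCODE annotation of GRCm38. Genes were named if they were label checks, called, at an adjusted p under 0.10, singled out by the study, LPS markers, called members of a list (otherwise up to 4 with the smallest p and at least 1 CPM) or among the top 5 per direction of the other contrasts. Further interferon regulatory factors, IgG receptors and mt-Rnr1 were added after their values were seen. The comparison and lists were chosen with earlier results of these data known. Scripts were tested on simulated data. Alternatives were RLE scaling, no filter, the libraries compared only, DESeq2 1.42.0, the threshold of the study and leaving out each library. A gene near the threshold is not reported here.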

Additional observations from a re-analysis of the deposited data

Results flagged for a closer look

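The genotype difference of 11 genes at LPS 24 h differed from that in another condition by a test of the difference itself (edgeR quasi-likelihood test), and each value is a log2 difference of differences. Against Control 24 h this was Fcgr3 (-0.57). Against LPS 2 h the shifts were 0.55 for Fnip2, 0.81 for Tent5c, 0.98 for Cd5l, 0.64 for Cd300lb and 0.86 for Fos, and -1.94 for Lcn2, -0.62 for Ccl5, -0.99 for S100a11, -0.48 for Tmem123 and -0.93 for Hist2h2ac. Of these, Fnip2, Tent5c and Ccl5 kept their call when any 1 of the 12 libraries compared was left out. In a fit of only those 12 libraries Fnip2 (adjusted p = 0.0694) and Tent5c (0.119) did not pass. The shifts of Cd300lb (0.26), Fos (0.0548), S100a11 (0.0694), Tmem123 (0.366) and Hist2h2ac (0.342) did not pass in that fit either. Fcgr3 did not pass (0.0754) when only the libraries of its own comparison were fitted. At most 5 genes per direction are listed by rule.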

How the results depend on the processing

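No paired analysis was possible because the columns carry no replicate numbers. Of the 17 calls at LPS 24 h, 6 (Irf5, Lyz1, Lyz2, Lrrc27, Myo10 and Fcgr3) held in every alternative that gave an adjusted p, and no called gene changed direction. RLE scaling left 17 genes called at LPS 24 h (10 higher, 7 lower), 1 for the interaction with LPS and 20 for the shift against LPS 2 h. Without the filter on low counts the numbers were 112 (74 higher, 38 lower), 26 (15 and 11) and 67 (34 and 33). The 112 genes, which include the 17, had all passed the filter, and the cause was not tested. A fit of only the libraries compared, which has fewer samples, called 9 (7 higher, 2 lower), 0 (0 and 0, with 655 at an unadjusted p under 0.05) and 3 (1 and 2). Of the 17 genes, Glul, Tent5c, Spen, Akr1b8, Lhpp, March1, Zfp395 and Pim1 did not pass in it (adjusted p of 0.0594 to 0.295, edgeR). DESeq2 called 50 (25 and 25), 2 (1 and 1) and 69 (40 and 29). Of its 50 genes, 12 were among the 17 and the other 5 of the 17 had no adjusted p. By the study's own criterion (unadjusted p under 0.05, log2 fold change beyond 1 in either direction) there were 174 genes (130 higher, 44 lower). Leaving out each library in turn gave 9 to 27 genes at LPS 24 h (6 to 18 higher, 3 to 14 lower), 0 to 2 for the interaction (0 higher, 0 to 2 lower) and 7 to 35 for the shift (5 to 25 higher, 2 to 12 lower). The sign changed only in genes that were not called, whose log2 differences ranged, over the left-out LPS 24 h libraries, from -0.0703 (without KO library 1) to 0.3903 for Il1b, from -0.506 to 0.33 (without KO library 2, with 0.13 and 0.21 without WT library 1 and 3) for Il6, from -0.21 (without KO library 2) to 0.2713 for Il10, from -0.0224 (without KO library 3) to 0.173 for Acod1 and from -0.2895 to 0.16 (without WT library 3, with 0.13 without KO library 3) for Syce2. List medians moved beyond the spread between libraries in 31 of 216 cases. With 3 libraries a group and 3 counts at about 0.5 CPM, small changes of weakly expressed genes were not detectable.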
